A study of Mus musculus with 12 samples.

Results

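The miRNAs described here are the repeated miR-297, miR-466, miR-467 and miR-669 miRNAs, most of whose hairpins lie in intron 10 of the mouse gene Sfmbt2. They were taken by name: 46 of the 548 names in the deposited tables of mature miRNAs begin with 1 of these 4 numbers and carry no star, the mark of the less abundant arm. Of the 46, 4 were miR-297 names, 20 were miR-466 names, 8 were miR-467 names and 14 were miR-669 names. The choice was made by name, with earlier results of these data known.

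A miRNA is cut from a hairpin of the primary transcript, and one strand of the resulting duplex is loaded into an Argonaute protein. Bases 2 to 8 of that strand, the seed, do most of the pairing with target mRNAs, so a shift of the 5′ end by one base changes the seed. Sfmbt2 encodes a Polycomb group protein and is imprinted in the mouse, where its intronic miRNA cluster is known for high expression in the placenta and in embryonic stem cells. The hairpins arose by repeated duplication in rodents, are rich in GT and CA repeats, and differ from one another by few bases.

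The study read miRNAs in 12 cell populations of C57BL/6 mice, with 1 library each. From bone marrow came LSK (Lineage-negative, Sca+ cKit+), MPP (LSK cells that were CD135+ CD106+), LMPP (LSK cells that were CD135+ CD106-) and ProB (B220+ IgM- CD43hi). From thymus came the CD4- CD8- CD90+ stages DN1 (CD44+ CD25-), DN2 (CD44+ CD25+), DN3 (CD44- CD25+), all CD3-, and DN4 (CD44- CD25-, CD3lo), then DP (CD4+ CD8+, CD3lo, CD90+), and the CD3hi CD90+ CD24lo single positives CD4SP and CD8SP. MEF were fibroblasts of E14.5 embryos. The number of mice behind each library is not given in the sources used here. In a sorted population, fewer cells that hold a miRNA and less of it per cell cannot be told apart.

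Reads assigned to mature miRNAs numbered 63386 for DN4, the fewest, and 4572864 for DN3, the most, so that 3 reads, the floor used for a count of 0, stood for 47.3 RPM (reads per 1000000 mature reads) in DN4, 9.72 RPM in MEF, 5.73 RPM in DP and at most 3.06 RPM in the other 9 libraries. The libraries also differed in where reads begin on the miRNA. Most began at base 3 in all bone marrow libraries, DN1, DN2, CD4SP and CD8SP (8 in all), at base 2 for DN4, DP and MEF, and at base 1 for DN3 alone. Comparisons of DN2 with DN3, DN3 with DN4 and DP with CD4SP cross these groups, and read start and population cannot be told apart in them. The blood markers miR-142-3p and miR-142-5p summed to at least 8207 RPM in every blood library and to 159 RPM in MEF, where 5 mesenchymal miRNAs summed to 21959 RPM. DN1 also held the myeloid marker miR-223 at 17609 RPM and the lymphocyte markers miR-150 and miR-342-3p at 54831 RPM together, against 869 and 3838 RPM in DN2.

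The annotation (GENCODE M21, mouse GRCm38) places 119 miRNA hairpins inside Sfmbt2 (chr2:10370510-10595253, plus strand), and all 119 lie in intron 10 of the 22 introns of the transcript Sfmbt2-201, on the strand of the gene. Of these, 71 carry 1 of the 4 numbers and span chr2:10466663-10518279. The deposited tables hold no genome coordinates, so each distinct sequence was searched in the annotated hairpins. Over the 12 libraries, 82.6% of the reads under the 46 names had a sequence found only in hairpins inside Sfmbt2, 3.14% one found both inside and elsewhere, 0.495% one found only elsewhere, and 13.8% no exact match. The share found only inside Sfmbt2 was 62.2% in DN4, 65.4% in DP and 59.2% in MEF, against 79.5% to 87.2% in the other libraries. In DN4 and DP, 24.4% and 23.0% matched both inside and elsewhere. By name alone the picture differs: 33 names have all their hairpins inside Sfmbt2, 4 have hairpins inside and elsewhere, 7 only elsewhere, and 2 matched none. The 7 names held 43.3% of member reads in DN4, 39.2% in DP and 24.6% in MEF, against 5.74% to 9.95% in the other libraries. The names placed elsewhere were nevertheless used for reads that fit the cluster. Of the reads named miR-466j, whose own hairpin is on chromosome 10, 65.7% matched only hairpins in Sfmbt2 and 6.8% only a hairpin elsewhere. For miR-466k, on chromosome 3, the shares were 48.8% and 4.92%, and for miR-467h, on chromosome 9, 85.2% and 0.864%. In DN4 and DP, 63.6% and 32.4% of the miR-466j reads matched only hairpins in Sfmbt2. There, 36.4% and 54.1% matched both inside and elsewhere.

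The sequences below are the most read DN3 sequences of the miR-467 miRNAs, shown because DN3 reads carry the whole 5′ end and the position of that end separates DN3 from the other libraries. Capitals mark bases 2 to 8. Each is found in hairpins of chromosome 2 only. "Upstream" and "downstream" name the earlier and the later of a pair of starts 1 base apart.
miR-467c, downstream start: tAAGTGCGtgcatgtatatgtg
miR-467c, upstream start: aTAAGTGCgtgcatgtatatgt
miR-467d, downstream start: tAAGTGCGcgcatgtatatgc
miR-467d, upstream start: aTAAGTGCgcgcatgtatatgc
miR-467e, downstream start: tAAGTGTGagcatgtatatgtg
miR-467e, upstream start: aTAAGTGTgagcatgtatatgt
miR-467a: tAAGTGCCtgcatgtatatgcgt

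miR-467c and miR-467d shared the seed AAGTGCG in their downstream forms and TAAGTGC in their upstream forms. Bases 2 to 7 of miR-467a and of the downstream miR-467c and miR-467d were AAGTGC, as are the same bases of 8 of the 1679 mouse mature miRNAs in RefSeq (GRCm38.p6), among them miRNAs of the miR-290 and miR-302 families of embryonic stem cells. One of those, miR-291a-3p, is shown for comparison in RNA letters. Reads of the miR-290 family were few. Of 5 names looked for (miR-290-5p, miR-291a-3p, miR-292-3p, miR-294 and miR-295), 4 occur in the tables and summed to at most 0.415 RPM in any blood library and to 9.72 RPM in MEF.
miR-291a-3p (RefSeq): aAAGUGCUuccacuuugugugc

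The upstream miR-467c sequence was deposited under the name miR-467h. RefSeq miR-467h (chr9:115381898-115381919, plus strand) differs from it by U8C, counted from the 5′ end with the RefSeq base first, and the DN3 sequence occurs in the hairpin of miR-467c alone.
miR-467h (RefSeq): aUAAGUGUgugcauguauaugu
miR-467h as deposited in DN3 (also the upstream form above): aTAAGTGCgtgcatgtatatgt

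The miR-669, miR-297 and miR-466 sequences follow, with the same capitals, shown for the seeds they share and for both arms of the miR-669a hairpin. The miR-466 forms from the 3′ side of the hairpins are not printed. All sequences shown lie on chromosome 2, and miR-297 also matches a hairpin on chromosome 7.
miR-669a: aGTTGTGTgtgcatgttcatgtct
miR-669l: aGTTGTGTgtgcatgtatatgt
miR-669f: aGTTGTGTgtgcatgtgcatgtgt
miR-669o, downstream start: aGTTGTGTgtgcatgtttatgtgt
miR-669o, upstream start: tAGTTGTGtgtgcatgtttatgt
miR-669b: aGTTTTGTgtgcatgtgcatgtgt
miR-669c: aTAGTTGTgtgtggatgtgtgtat
miR-669a and miR-669o, 3′ side of the hairpin: aCATAACAtacacacacacgt
miR-297: aTGTATGTgtgcatgtgcatgt
miR-466h: tGTGTGCAtgtgcttgtgtgtat

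Of the 46 names, 6 matched a RefSeq mature entry. Apart from miR-467h, those of the named miRNAs are miR-466j (chr10:60960802-60960824) and miR-466k (chr3:85467396-85467418).
miR-466j (RefSeq): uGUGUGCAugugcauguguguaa
miR-466k (RefSeq): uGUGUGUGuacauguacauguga
miR-466j and the miR-466h read begin with the same 8 bases. The 4 miR-669 forms that begin aGTTGTGT (miR-669a, miR-669l, miR-669f and the downstream miR-669o) share 1 seed, the most common among the 19 forms of at least 400 DN3 reads.

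The summed level of the 46 names in the mature tables was highest in DN3, next in the single-positive thymocytes, and lowest in DP and MEF. It was 697 RPM in LSK, 822 RPM in MPP, 1083 RPM in LMPP, 1301.5 RPM in ProB, 760.3 RPM in DN1, 1665 RPM in DN2, 6351 RPM in DN3, 709.9 RPM in DN4, 257 RPM in DP, 4549.8 RPM in CD4SP, 4328 RPM in CD8SP and 115 RPM in MEF. The highest library changes when reads assigned to hairpins are added, at 9217 RPM in CD8SP against 7368 RPM in DN3. For these 2 values only, RPM was counted per mature and hairpin reads together, not per mature reads. The cluster was thus a small part of each library, from 0.0115% of mature reads in MEF to 0.635% in DN3. The DN4, DP and MEF sums rest on 45, 134 and 36 reads, with exact 95% Poisson intervals of 518 to 950.0, 214 to 303 and 81.7 to 162 RPM. All intervals here cover counting error only.

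**Figure D1:**
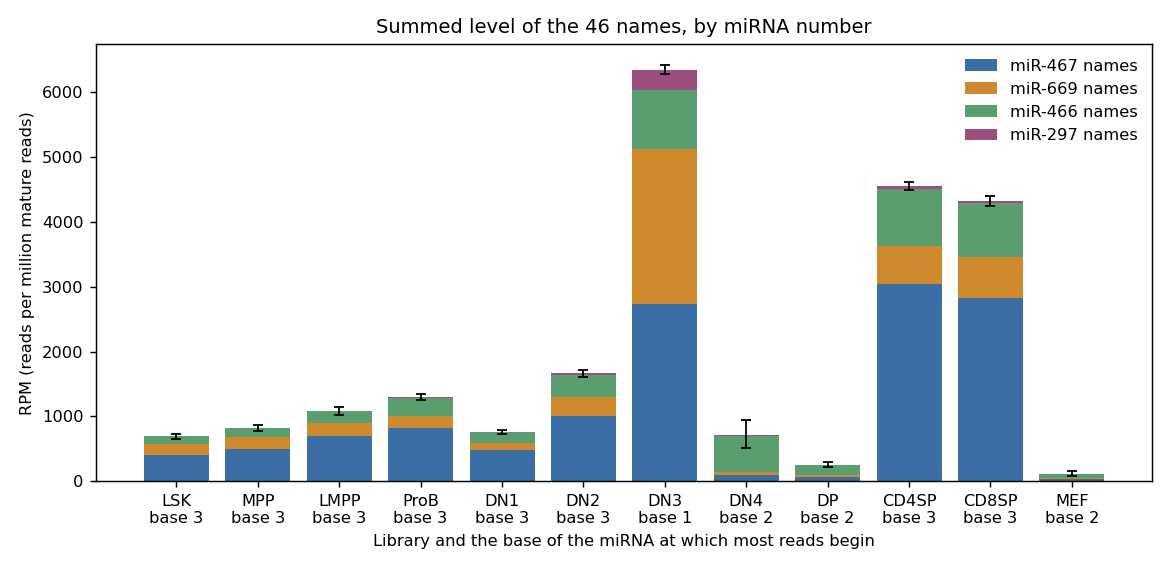
Stacked bars give the summed level of the 46 names in RPM by miRNA number in each of the 12 libraries, with the exact 95% Poisson interval of the whole sum. The x axis also names the base of the miRNA at which most reads of the library begin, and the DN3 sum of 6351 RPM stands beside CD4SP and CD8SP at 4549.8 and 4328 RPM.

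The miR-467 names made up most of the sum wherever reads began at base 3, from 58.1% of member reads in LSK to 66.9% in CD4SP. Their level was 405 RPM in LSK, 499 RPM in MPP, 693 RPM in LMPP, 817 RPM in ProB, 483 RPM in DN1, 1012 RPM in DN2, 2739.9 RPM in DN3, 94.7 RPM in DN4, 66.8 RPM in DP, 3045 RPM in CD4SP, 2823 RPM in CD8SP and 42.1 RPM in MEF. They were the only number of which CD4SP stood above DN3. In DN3 the miR-669 names rose to 37.5% of member reads (95% interval 36.9% to 38.0%), against 12.8% to 24.0% in the base 3 libraries. In DN4, 35 of the 45 reads were miR-466 (77.8%, interval 62.9% to 88.8%), as were 59.1% (50.9% to 68.1%) in DP and 49.3% (32.9% to 67.1%) in MEF, while the miR-466 share was 14.4% to 21.8% in the other 9 libraries. The miR-297 names were the smallest group, at 319 RPM in DN3 and at most 44.7 RPM elsewhere.

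By the rule for single values, 9 members are given in full: the 8 of highest mean RPM and any other that reached 100 RPM and 10 reads in at least 2 libraries. The most abundant, miR-467c, was at 148 RPM in LSK, 179 RPM in MPP, 264 RPM in LMPP, 470.1 RPM in ProB, 202 RPM in DN1, 503 RPM in DN2, 579.8 RPM in DN3, 15.8 RPM in DN4, 3.82 RPM in DP, 1449.6 RPM in CD4SP, 1102 RPM in CD8SP and 3.24 RPM in MEF. Its DN4, DP and MEF values rest on 1, 2 and 1 reads, and both single positives stood above every other library. miR-467d, which shares its seed, was at 135 RPM in LSK, 156 RPM in MPP, 215 RPM in LMPP, 156 RPM in ProB, 133 RPM in DN1, 254 RPM in DN2, 592 RPM in DN3, 63.1 RPM in DN4, 34.4 RPM in DP, 729 RPM in CD4SP, 766 RPM in CD8SP and 29.2 RPM in MEF. miR-467c lay above miR-467d in the 8 libraries read from base 3 and below it in DN3, DN4, DP and MEF. In DN3 that order rests on the names. Of 1222 upstream miR-467c reads there, 95.3% were among mature miRNAs, and the most read sequence (990 reads) was deposited as miR-467h. By form, DN3 held more miR-467c than miR-467d at both starts, 417 against 391 RPM downstream and 267 against 213 RPM upstream.

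miR-467e was at 81.9 RPM in LSK, 92.8 RPM in MPP, 103 RPM in LMPP, 78.1 RPM in ProB, 76.9 RPM in DN1, 110.0 RPM in DN2, 1131 RPM in DN3, 15.8 RPM in DN4, 19.1 RPM in DP, 344 RPM in CD4SP, 458 RPM in CD8SP and 6.48 RPM in MEF. Under this name DN3 was the highest library, but many CD8SP reads of miR-467e lay in the hairpin table: its downstream form, both tables added, was at 1313 RPM in CD8SP and 485 RPM in DN3, and its upstream form at 745 RPM in DN3. miR-467a was at 40.7 RPM in LSK, 70.2 RPM in MPP, 109 RPM in LMPP, 112 RPM in ProB, 71.0 RPM in DN1, 143 RPM in DN2, 134 RPM in DN3, 0 RPM in DN4, 9.54 RPM in DP, 519 RPM in CD4SP, 493 RPM in CD8SP and 3.24 RPM in MEF. For miR-467a, in contrast, DN3 lay beside DN2 and LMPP, and the single positives were the high libraries.

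The miR-669 members differed among themselves in the same way. miR-669o was at 85.3 RPM in LSK, 119.9 RPM in MPP, 138 RPM in LMPP, 112 RPM in ProB, 64.9 RPM in DN1, 152 RPM in DN2, 229 RPM in DN3, 307 RPM in CD4SP and 290.0 RPM in CD8SP, with no read in DN4, DP or MEF. miR-669a was at 19.6 RPM in LSK, 16.8 RPM in MPP, 14.3 RPM in LMPP, 22.3 RPM in ProB, 7.19 RPM in DN1, 38.6 RPM in DN2, 1119 RPM in DN3, 1.91 RPM in DP, 84.4 RPM in CD4SP and 61.0 RPM in CD8SP, with no read in DN4 or MEF. miR-669a thus exceeded miR-669o in DN3 and, by 1 read against 0, in DP, and lay below it in the 8 libraries read from base 3.

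For miR-466j and miR-466k, DN4 was not low, at 11 and 8 reads. miR-466j was at 22.7 RPM in LSK, 24.7 RPM in MPP, 35.2 RPM in LMPP, 51.3 RPM in ProB, 32.1 RPM in DN1, 66.6 RPM in DN2, 145 RPM in DN3, 174 RPM in DN4 (11 reads), 70.6 RPM in DP, 150.0 RPM in CD4SP, 127 RPM in CD8SP and 21.1 RPM in MEF. miR-466k was at 15.3 RPM in LSK, 24.2 RPM in MPP, 39.4 RPM in LMPP, 77.5 RPM in ProB, 34.2 RPM in DN1, 74.8 RPM in DN2, 118 RPM in DN3, 126 RPM in DN4 (8 reads), 28.6 RPM in DP, 163 RPM in CD4SP, 173 RPM in CD8SP and 6.48 RPM in MEF. miR-466c-5p was at 14.2 RPM in LSK, 22.9 RPM in MPP, 27.1 RPM in LMPP, 35.0 RPM in ProB, 28.8 RPM in DN1, 61.3 RPM in DN2, 52.0 RPM in DN3, 31.6 RPM in DN4, 11.5 RPM in DP, 187 RPM in CD4SP and 191 RPM in CD8SP, with no read in MEF. The single positives were the high libraries for miR-466c-5p, and DN3 lay below DN2. Of the 20 miR-466 names, 9 had no read in DN4.

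Another 6 names reached 100 RPM and 10 reads in 1 library only. Of these, miR-669c (324 RPM), miR-467h (301 RPM), miR-669b (279 RPM), miR-297a (213 RPM) and miR-669l (224 RPM) did so in DN3, and miR-669f did so in CD8SP (176 RPM). Outside DN3, miR-669c did not exceed 2.89 RPM and miR-467h 1.54 RPM. The remaining 31 names stayed under 100 RPM or 10 reads in every library, and 12 of the 46 stayed under 10 RPM in every library. DN3 was the highest library for 28 of the 46 names, CD4SP or CD8SP for 12 and DN4 for 6. Among the 8 libraries read from base 3, CD4SP or CD8SP was the highest for 41 of the 43 names with a read in them. These counts are descriptions, and the same counts over all names are not given here. Names share reads, so that miR-466a-3p, miR-466b-3p, miR-466c-3p and miR-466e-3p had identical values, highest in DN3. The DN4 peaks rest on 0.5 to 11 reads.

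**Figure D2:**
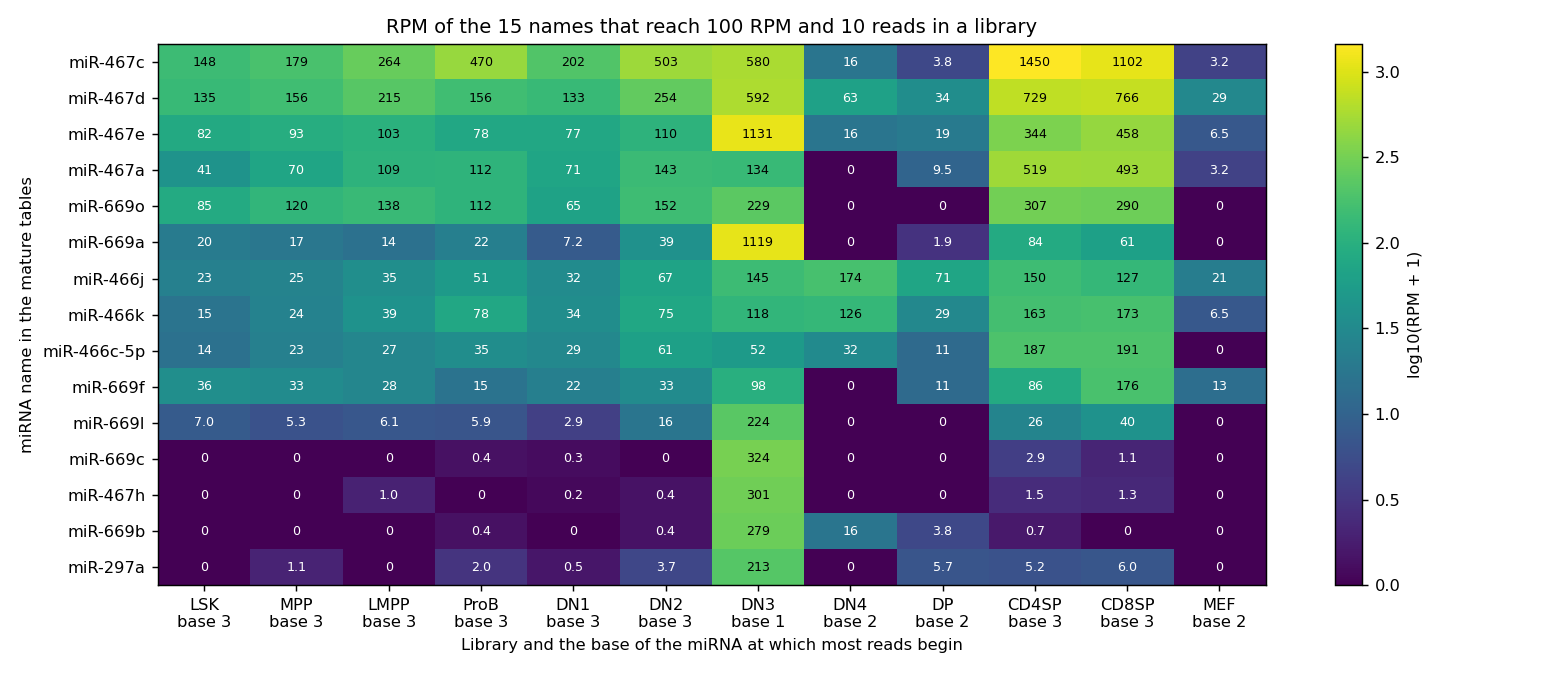
Each cell gives the RPM of 1 of the 15 names that reached 100 RPM and 10 reads in at least 1 library, coloured by log10(RPM + 1), in the 12 libraries with their usual read start. miR-467c, miR-467d and miR-467a are highest in CD4SP and CD8SP, while miR-669c, miR-467h, miR-669b and miR-297a exceed 200 RPM in DN3 and stay under 16 RPM elsewhere.

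A ratio between stages was called if all of its 95% interval was past 2-fold and 100 RPM and 10 reads were reached in the higher of the pair. No p-value is given, since there was 1 library per population. A member under the minimum in one library of a pair entered through the other, which fixes its direction, so counts of members called are descriptions. No member was called of the 3 to 5 tested from LSK to MPP, MPP to LMPP, LMPP to ProB or LMPP to DN1. Over all names tested in the same pairs, 0.0%, 13.5%, 7.64% and 9.49% were called higher and 2.14%, 1.29%, 30.6% and 38.0% lower. The cluster sum was 1.20-fold higher in ProB than in LMPP (1.12 to 1.29), or 1.97-fold under TMM, where the miR-466 names are called higher (2.68-fold), and 1.43-fold lower in DN1 than in LMPP (1.33 to 1.53). The DN1 difference has the opposite direction under size-factor scaling, with a ratio of 1.03, and under TMM, with 1.06.

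From DN1 to DN2 the sum was 2.19-fold higher (2.09 to 2.30), with both libraries read from base 3. The miR-669 names were 2.62-fold higher (2.32 to 2.97), the miR-466 names 2.14-fold (1.93 to 2.38) and the miR-467 names 2.09-fold (1.97 to 2.23). Of the 5 members tested, miR-467c was called higher, 2.49-fold (2.27 to 2.73), where 20.9% of all tested names were. The call of the sum is lost under 5 alternatives, with ratios of 1.95 to 2.06, and that of miR-669 with both tables added (1.73) and after thinning (1.31). The markers miR-223, miR-150 and miR-342-3p were higher in DN1, as given above, and their part in the lower DN1 level was not tested.

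From DN2 to DN3 the sum was 3.81-fold higher (3.69 to 3.94). The summed erythroid markers miR-451, miR-486 and miR-144 also stood at 569 RPM in DN2, 4652 RPM in DN3, 552 RPM in DN4 and 19.1 RPM in DP, and their part in the result was not tested. By number it was 16.0-fold higher for miR-297 (12 to 21.8), 8.28-fold for miR-669 (7.67 to 8.95), 2.71-fold for miR-467 (2.59 to 2.83) and 2.63-fold for miR-466 (2.44 to 2.84). With size factors neither miR-467 (2.09) nor miR-466 (2.03) is called, and miR-466 is also not called with TMM (2.11), with both tables added (1.65) or after thinning (2.6). With both tables added miR-669 was 3.9-fold higher, and miR-297 ranged from 9.22-fold to 58.2-fold with the treatment of shared sequences. Of 13 members tested, 8 were called higher, miR-467d, miR-467e, miR-669a, miR-669l, miR-669b, miR-669c, miR-467h and miR-297a, where 31.9% of all tested names were higher and 14.1% lower. miR-669a was 29.0-fold higher (23.6 to 36.0), miR-467e 10.3-fold (9.09 to 11.7), and miR-669c, with no read in DN2, at least 261-fold. miR-467a (0.932-fold, 0.816 to 1.07), miR-467c (1.15-fold, 1.08 to 1.23) and miR-669o (1.5-fold, 1.33 to 1.70) were not called, so names of near copies fell on both sides of the rule. For miR-467c and miR-467d that split rests partly on the names. The most read upstream sequence of miR-467c was deposited as miR-467h, and that of miR-467d as miR-467d. Their downstream forms alone were 0.846-fold and 1.59-fold.

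The members also differed in the 5′ end of their DN3 reads. Of reads with the miR-467e sequence, 3406 began 1 base upstream and 2218 downstream, an upstream share of 60.6% (95% binomial interval 59.3% to 61.8%). The upstream share was 39.1% (37.4% to 40.8%) for miR-467c and 35.2% (33.5% to 37.1%) for miR-467d. A library read from base 3 would list the same molecules without their first 2 bases. There, reads of the upstream form made up at most 0.735% of both forms for miR-467e (11 reads against 1485 in CD4SP), at most 0.305% for miR-467c (1 against 327 in MPP) and at most 0.168% for miR-467d (1 against 594 in DN2).

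In the same way, each of the 19 forms with at least 400 DN3 reads (first 20 bases, both tables, a definition chosen after the values were seen) was looked up in the other libraries from the base at which those are read. For 10 forms, no library read from base 3 reached 10% of the DN3 level: miR-669a (1049 RPM in DN3), upstream miR-467e (745 RPM), miR-669c (322 RPM), upstream miR-467c (267 RPM), miR-669b (247 RPM), upstream miR-467d (213 RPM), miR-297 (192 RPM), miR-669f (159.9 RPM), a miR-466 form from the 3′ side of its hairpins (119 RPM) and downstream miR-669o (109.6 RPM). Their sum was 15654 reads, 3423 RPM, in DN3, and 0 to 14 reads in each of the other 10 libraries with both tables. The other 9 forms had such a counterpart. Of these, a miR-466 form from the 3′ side, at 204 RPM in DN3 and 609 RPM in CD8SP, had no exact match in an annotated hairpin. Since the same values split the forms, the sums of the sets are descriptions only.

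**Figure D3:**
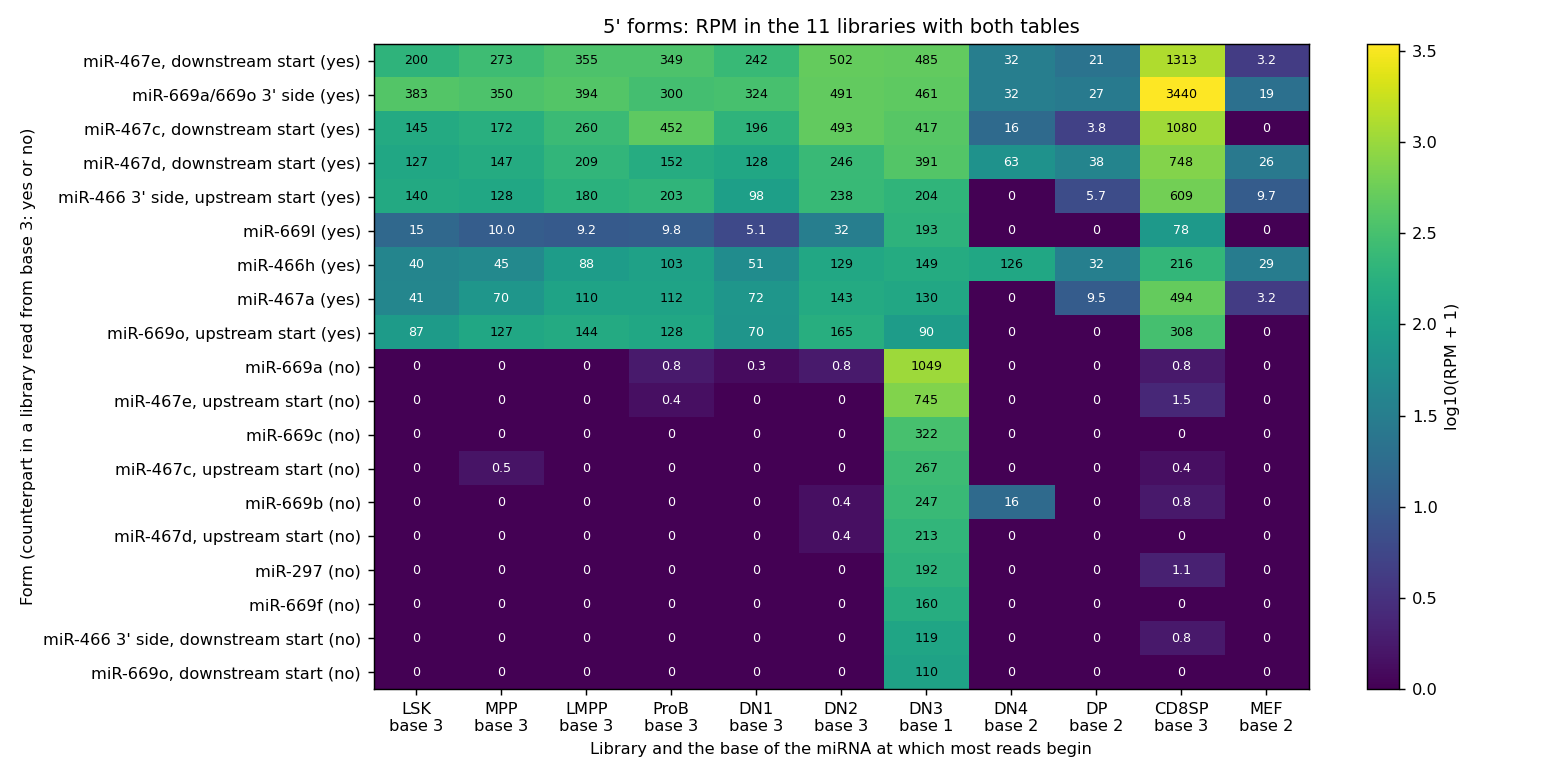
Each cell gives the RPM of 1 of 19 forms, defined by their 5′ end, in the 11 libraries with both tables, coloured by log10(RPM + 1). The 10 forms marked (no) reach 109.6 to 1049 RPM in DN3 and at most 1.5 RPM in any plotted library read from base 3, and the 9 marked (yes) are present in those libraries.

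The same lookup over other miRNAs gave 91 of 469 forms without such a counterpart (19.4%), against 10 of 19 here (52.6%). Over all forms, members included, the share differed by the first 2 bases. Of forms beginning AT, 17 of 18 had none (94.4%), as had 4 of 4 beginning GT and 9 of 24 beginning AG (37.5%), but 15 of 148 beginning TA (10.1%) and 0 of 14 beginning AC. All of the 10 forms here begin AT or AG. Whether these molecules are missing from the base 3 libraries or from their cells was not tested.

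The 9 forms with a counterpart, both tables added, summed to 1177 RPM in LSK, 1323 RPM in MPP, 1750.4 RPM in LMPP, 1809 RPM in ProB, 1184 RPM in DN1, 2439.7 RPM in DN2, 2519 RPM in DN3, 268 RPM in DN4, 137 RPM in DP, 8286 RPM in CD8SP and 90.7 RPM in MEF. On these forms DN3 was 1.03-fold DN2 (1.00 to 1.07), where the sum by name was 3.81-fold. Single forms ranged from 0.546-fold for upstream miR-669o (0.474 to 0.628) through 0.846-fold for downstream miR-467c (0.787 to 0.911) and 1.59-fold for downstream miR-467d (1.45 to 1.74) to 6.04-fold for miR-669l (4.78 to 7.73). The other 5 lay between 0.86-fold and 1.15-fold.

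**Figure D4:**
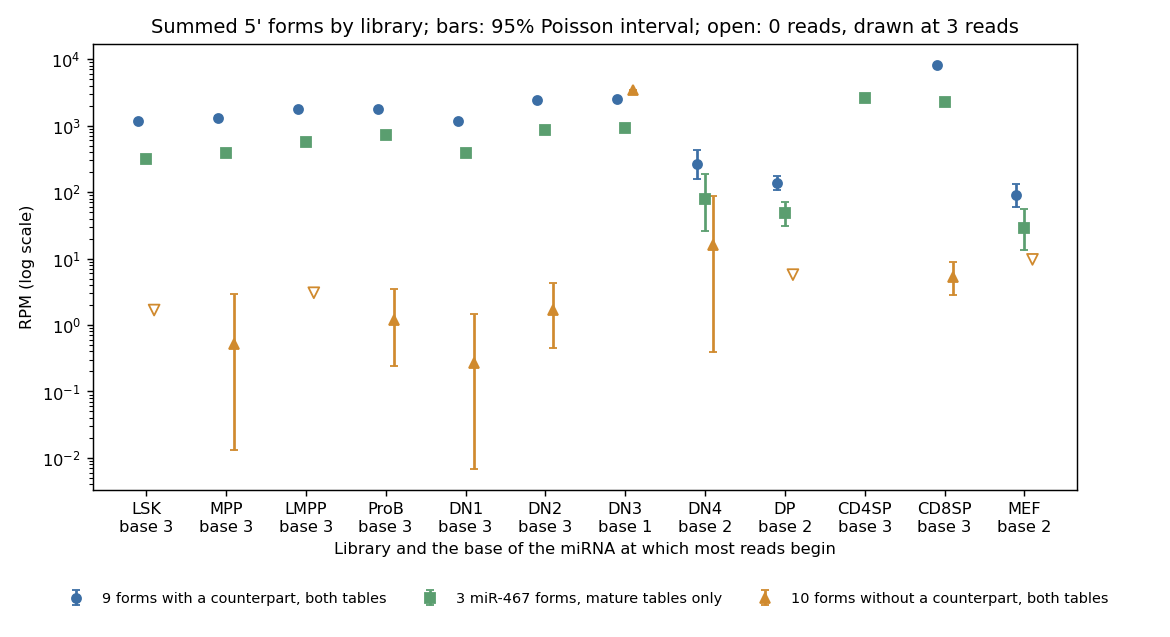
Points give the summed RPM, on a log scale, of the 9 forms with a counterpart, of 3 downstream or single-start miR-467 forms counted in the mature tables only, and of the 10 forms without a counterpart, with exact 95% Poisson intervals. DN2 and DN3 lie side by side on the first 2 sums, at 2439.7 and 2519 RPM for the 9 forms, and the third sum reaches 3423 RPM in DN3 alone. The same values split the forms into these sets, so both patterns are partly built in.

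From DN3 to DN4 the sum by name was 8.95-fold lower (6.68 to 12.3), and 11 of 13 members tested were called lower, where 27.6% of all tested names were lower and 36.2% higher. Of those 13, DN4 reached the minimum for miR-466j alone. On the 9 forms with a counterpart, which were chosen for their DN3 reads, DN4 was 9.39-fold below DN3 (5.86 to 16.1). The miR-467 names were 28.9-fold lower (13.3 to 78.9) and the miR-669 names 50.3-fold (17.2 to 244). The miR-466 names were 1.65-fold lower (1.18 to 2.37) and not called, but 3.16-fold lower and called under TMM, and miR-466j (1.20-fold higher, 0.594 to 2.15) and miR-466k (1.07-fold higher, 0.459 to 2.12) were the 2 tested members without a call. The DN4 values rest on 45 reads in all.

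DP was lower still. The sum was 2.78-fold below DN4 (1.93 to 3.92), not called, and its direction is the opposite under size-factor scaling and TMM, with ratios of 1.07 and 1.25. The miR-466 names were 3.62-fold lower (2.36 to 5.44), a call that is lost under 6 alternatives, with 1.22-fold lower under size factors and 1.04-fold lower under TMM. The 1 member tested, miR-466j, was not called, where 52.1% of all tested names were lower and 0.704% higher. In the tables of reads assigned to hairpins, mir-466i and mir-466k stood out in these libraries. mir-466i was at 124 RPM in DN4 and 64.2 RPM in DP, against 3.58 to 17.1 in the other libraries with such a table. mir-466k was at 76.3 RPM in DN4 and 49.2 RPM in DP, against 4.23 to 17.1 in those others. By name, both have their hairpins outside Sfmbt2 only, on chromosomes 13 and 3. In DN4, 3 reads stand for 47.3 RPM. In MEF the sum was 2.19-fold below DP (1.51 to 3.26), and no member reached the minimum in either library, where 51.0% of all tested names were higher in MEF and 23.0% lower.

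From DP to CD4SP the sum was 17.8-fold higher (15 to 21.2), by number 45.6-fold for miR-467 (32.8 to 65.5), 18.0-fold for miR-669 (11.2 to 30.9) and 5.75-fold for miR-466 (4.61 to 7.26). Of 8 members tested, 7 were called higher, where 45.1% of all tested names were higher and 33.8% lower. miR-467c was 380.0-fold higher, with an interval of 105 to 3140 set by 2 reads in DP. miR-669o, with no read in DP, was at least 53.7-fold higher. miR-466j was 2.12-fold higher (1.52 to 3.04) and not called.

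DN2 and CD4SP share their read start, and there the sum was 2.73-fold higher in CD4SP (2.64 to 2.83). Of 8 members tested, 5 were called higher, where 14.1% of all tested names were higher and 34.5% lower: miR-467a (3.61-fold, 3.22 to 4.06), miR-467e (3.13-fold, 2.75 to 3.58), miR-466c-5p (3.04-fold, 2.55 to 3.65), miR-467c (2.88-fold, 2.71 to 3.07) and miR-467d (2.87-fold, 2.63 to 3.13). The other 3, miR-466j, miR-466k and miR-669o, were 2.26-fold, 2.18-fold and 2.02-fold higher and not called. The 3 miR-466 members among the 8 were under 100 RPM in DN2. The miR-669 names together were 2.03-fold higher (1.86 to 2.21) and not called, but were called under size factors (3.0), TMM (2.78) and the total without the 3 most abundant names (2.29). CD8SP on the 9 forms was 3.40-fold above DN2 (3.30 to 3.50), each form being higher, from 1.67-fold for miR-466h (1.45 to 1.92) to 7.01-fold for the 3′ side of the miR-669a and miR-669o hairpins (6.60 to 7.45).

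CD4SP and CD8SP were close to each other. The sum was 0.951-fold in CD8SP (0.930 to 0.973), and none of 9 members tested was called, where 11.4% of all tested names were higher and 3.79% lower. The widest difference among the 9 was miR-669f, 2.05-fold higher in CD8SP (1.79 to 2.35). Next were miR-467e, 1.33-fold higher (1.23 to 1.43), and miR-467c, 1.32-fold lower (1.26 to 1.37).

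The 3′ end of miR-467c also varied. Of reads with the first 19 bases of downstream miR-467c, those that ended at base 22 were the most common kind in each of the 9 libraries with at least 50 such reads, from 35.4% in CD8SP to 56.3% in ProB and 44.7% in DN3. Between 6.27% (ProB) and 14.0% (MPP) carried a further A at base 23, where the annotated hairpin has T.

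A large share of the cluster lay outside the mature tables, among reads assigned to hairpins instead of to a listed mature arm. These made up 20.9% of the reads of the 4 numbers in DN3 and 57.4% in CD8SP, with the other 9 libraries between 39.0% and 52.2%. No such table of CD4SP was used here. For miR-669 the share in CD8SP was 85.9%. Most of it was the 3′ side of the miR-669a and miR-669o hairpins, deposited under 3 hairpin names and split equally here. Its most read CD8SP sequence, which starts at the third base of the DN3 form above and has bases 3 to 8 in capitals, had 8398 reads, 3157 RPM.
3′ side of miR-669a and miR-669o, as read in CD8SP: ATAACAtacacacacacgt

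This 3′ form was at 383 RPM in LSK, 349.7 RPM in MPP, 394 RPM in LMPP, 300.1 RPM in ProB, 324 RPM in DN1, 491 RPM in DN2, 461 RPM in DN3, 31.6 RPM in DN4, 26.7 RPM in DP, 3439.7 RPM in CD8SP and 19.4 RPM in MEF. It was 7.01-fold higher in CD8SP than in DN2, the largest ratio among the 9 forms, and 0.938-fold in DN3 (0.873 to 1.01). The 5′ side of the miR-669a hairpins had 4799 reads in DN3 and at most 2 in any other library under its DN3 form. Under the name miR-669a, DN3 stood at 1119 RPM and CD8SP at 61.0 RPM, the opposite order to the 3′ form. CD8SP is read from base 3 and DN3 from base 1, so read start and population cannot be told apart here. Upstream miR-669o was at 90.1 RPM in DN3 and 308 RPM in CD8SP, the same order as the 3′ form. Downstream miR-669o was at 109.6 RPM in DN3, with no read in CD8SP. Under the hairpin names, mir-467e was at 933 RPM in CD8SP against 126 to 421 in the other base 3 libraries with such a table, and mir-466d at 567 against 95.8 to 228. Names with a star added 37.5 RPM in DN3, 18.0 RPM in CD4SP and 10.2 RPM in CD8SP, and at most 4.08 RPM elsewhere.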

How the data were processed

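Per the labels' protocols, libraries were made from a gel fraction of 19 to 24 nt by adaptor ligation, which needs a 5′ phosphate. The deposited tables give the raw read count of each distinct sequence, its assigned miRNA name, length and position, per the file headers. One table per library holds mature miRNAs and a second, used here for 11 libraries, reads assigned to hairpins. For CD8SP these tables are exchanged, and each was assigned from its miRNA names. The sources used here do not state the trimming, aligner, miRNA release, mismatches or genome build.

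Duplicate lines of a library, sequence and name were dropped. A sequence with several names was split equally, and RPM are reads per 1000000 mature reads. Where both tables were added for names, RPM was instead counted per mature and hairpin reads together. For 5′ forms it stayed per mature reads. Ratios have exact 95% Clopper-Pearson intervals and single values exact 95% Poisson intervals, which cover counting error only. A ratio was called if all of its interval was past 2-fold and the higher value reached 100 RPM and 10 reads. A count of 0 was set to 3 reads for a fold. Full values are given for the 8 members of highest mean RPM and any that reached 100 RPM and 10 reads in at least 2 libraries. A 5′ form is the first 20 bases of DN3 reads, with at least 400 reads, and its counterpart the reads that begin 1 or 2 bases later in libraries read from base 2 or 3. The members, lists and rules were chosen with earlier results of these data known. The rule was tried on simulated Poisson counts without the read-start differences of these libraries, and the outcome is not given here.

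Alternatives were DESeq2 1.42.0 size factors, edgeR 4.0.16 TMM, a total without the 3 most abundant names, other treatments of shared sequences, other filters, both tables added, star names added and thinning to 63386 reads. The work used Python 3.11.15 with pandas and SciPy, and R 4.3.3. Hairpins came from GENCODE M21 (GRCm38) and mature sequences from RefSeq (GRCm38.p6).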

Additional observations from a re-analysis of the deposited data

How the results depend on the processing

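Over the alternatives other than the 5′ forms, the cluster sum kept its call from DN2 to DN3 (2.66 to 3.99), DN3 to DN4 (6.99-fold to 18.9-fold lower), DP to CD4SP (12.6 to 23.3) and DN2 to CD4SP (2.73 to 4.04). With DESeq2 size factors the direction turned for the sum from LMPP to DN1 (1.03) and DN4 to DP (1.07), for miR-467 from LMPP to DN1 (1.02) and for miR-669 from CD4SP to CD8SP (0.979). The sum from DN1 to DN2 was 1.95, and members called higher numbered 1 from LMPP to ProB and 10 from DN2 to CD4SP. With TMM the same ratios were 1.06, 1.25 and 1.05, the DN1 to DN2 sum was 2.02, the DP to MEF sum 0.166 with 1 member lower, and members higher numbered 2 and 10. Without the 3 most abundant names, miR-669 from CD4SP to CD8SP was 0.968, the DP to MEF sum 0.203 with 1 member lower, and members higher numbered 5 from DN1 to DN2, 16 from DN2 to DN3 and 10 from DN2 to CD4SP. Counting shared sequences in full gave 14 higher from DN2 to DN3, 17 lower from DN3 to DN4, 12 higher from DP to CD4SP and 10 from DN2 to CD4SP. With sequences of 1 name only, miR-466 from CD4SP to CD8SP was 1.03, and without sequences seen once the DP to MEF sum was 0.29. With both tables added, counted over the 4 numbers, the DN1 to DN2 sum was 2.0, with 3 higher from DN2 to DN3, 3 lower from DN3 to DN4, 1 lower from DN4 to DP and 1 lower from DP to MEF. With no RPM minimum, 1 member was lower from LMPP to DN1, and 6 were higher from DN1 to DN2, 21 from DN2 to DN3, 19 from DP to CD4SP and 11 from DN2 to CD4SP. Thinned, the DN1 to DN2 sum was 2.02, with 0 members higher there and 1 from DN2 to CD4SP. On the 5′ forms, chosen after seeing the data, the sum was 2.06 from DN1 to DN2 and 1.03 from DN2 to DN3, and 1.07 on 3 miR-467 forms from DN2 to DN3. Forms without a counterpart were left out of these sums, so low DN2 to DN3 ratios were partly built in. By miRNA number, only the miR-466 ratios changed more often than the cluster sum. Over all pairs and alternatives, the miR-466 reading was the same in 96 of 117 cases. It was the same in 112 of 117 for miR-467, 109 of 116 for miR-669 and 107 of 108 for miR-297. For the cluster sum, 5′ forms included, it was the same in 124 of 138. The miR-466 fall from DN4 to DP was also lost without the 3 most abundant names (0.481), with sequences of 1 name only (0.336), without those seen once (0.382) and after thinning (0.257). The cause of these shifts was not tested. No paired analysis was possible because each population had 1 library. Depth limits DN4, DP and MEF most, where 3 reads stand for 47.3, 5.73 and 9.72 RPM.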
